A study of Homo sapiens with 18 samples.

Results

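The genes described here are 38 genes of chromosomal DNA replication and of deoxynucleotide synthesis. They were chosen by function and name, with earlier results of these data known, and all 38 were found among the 26372 gene symbols of the deposited table. They fall into 7 roles: the replicative helicase and its loading partners (12 genes), origin licensing (5 genes), the polymerases and primase (7 genes), the sliding clamp and its loader (5 genes), lagging-strand maturation (2 genes), deoxynucleotide supply (4 genes), and chromatin assembly with the replication checkpoint (3 genes). All 38 passed the filter for testing, a mean of at least 1 FPKM over the 18 libraries. FPKM are fragment numbers scaled to transcript length and to the mapped fragments of the library, so levels of different genes can be set side by side.

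RNA was sequenced from SH-SY5Y, an established human neuroblastoma line that keeps dividing in serum and takes on neuron-like features in differentiation medium. All cells carried a lentiviral construct of the FUGW type that encodes ZNHIT3, a zinc-finger protein of the assembly of small nucleolar RNA-protein particles. The protocol given for all 18 libraries also names a time of 48 hours after infection. Day 0 cells came from culture with 15% fetal bovine serum, and day 18 cells had spent 18 days in serum-free medium with 10 µM all-trans retinoic acid, 50 ng/ml BDNF, 2 mM dibutyryl cyclic AMP and 20 mM KCl. The 6 groups, of 3 libraries each, were wild-type ZNHIT3 (WT), ZNHIT3-C14R and a ZNHIT3 deletion construct, each at day 0 and at day 18. The deletion is named inconsistently in the labels: replicate 1 of each day is called 251 to 254, replicate 2 is called 251 to 255 and replicate 3 is called 251 to 256. No label says that the cells' own ZNHIT3 gene was altered, and no group without a construct was used here. Nothing in the labels says whether the 3 libraries of a group came from separate infections or cultures, so the p-values measure the spread between these libraries, which may be technical. Day 18 differs from day 0 in serum, in every added agent and in time in culture, and these cannot be told apart.

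ZNHIT3 itself, the delivered gene, served once as a check of the labels: at day 0 its FPKM was 537.8 ± 6.33 with WT, 423.8 ± 7.09 with C14R and 302.5 ± 9.4 with the deletion construct (SD, n = 3). At day 18 the values were 1153 ± 46.1, 653.2 ± 88.9 and 301.5 ± 9.89. The construct's sequence is part of that gene, so its own RNA and the cells' cannot be separated by symbol. Depth is known only in relative terms, from the steps in low FPKM values: day 0 libraries lay at 59.1% to 84.6% of the deepest library and day 18 libraries at 82% to 100%. The small nucleolar RNA SNORD3A held 6.87% to 58.6% of the summed FPKM at day 0 and 1.01% to 15.1% at day 18, with the lowest share and the lowest FPKM sum (553539) in replicate 1 of C14R at day 18. Markers of sympathetic neuroblastoma cells were present throughout (list sum 1400 to 1499 FPKM at day 0 and 2139 to 2295 at day 18), although TH, the enzyme of the first step of catecholamine synthesis, had at most 0.0804 FPKM in any day 0 library.

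DNA is copied once per cell cycle. In G1 the origin recognition complex, CDC6 and CDT1 load the ring of MCM2 to MCM7 onto DNA, and geminin (GMNN) later blocks CDT1 so that origins are not loaded again. In S phase CDC45 and the GINS complex join the ring to form the moving helicase, primase and the polymerases lay down new strands behind the PCNA clamp, and ribonucleotide reductase, thymidylate synthase and thymidine kinase supply the deoxynucleotides. Many of these genes are classic targets of E2F transcription factors, which are held in check by retinoblastoma family proteins when cells leave the cycle. Cells that differentiate into neurons cease to replicate their DNA.

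Promoter sequences of the members are shown because 37 of the 38 genes moved the same way between days, and because the sequence in front of a gene is independent of the measurements. RefSeq windows of 300 bases, 250 before and 50 after each annotated start on GRCh38.p14, were matched by symbol for 35 members, and no window was used for MCM4, MCM5 and GINS4. The 6 stretches printed here span the range of changes from MCM10 to GMNN, and were taken from the members with at most 4 annotated exonic bases in the last 160 bases before the start. Each is written 5′ to 3′ on the gene's strand, without annotated exonic bases. Capitals mark E2F letters (TTTCCCGC, TTTCGCGC, TTTGCCGC or TTTGGCGC) and CCAAT boxes (CCAAT) on either strand. The regions are chr10:13161398-13161553 (plus strand) for MCM10, chr20:5126627-5126782 (minus strand) for PCNA, chr2:135876444-135876603 (minus strand) for MCM6, chr11:4094525-4094684 (plus strand) for RRM1, chrX:24693758-24693917 (plus strand) for POLA1 and chr6:24775253-24775412 (plus strand) for GMNN, where PCNA and GMNN have 2 windows each and the one with more matches is shown. In the GENCODE annotation GMNN begins at chr6:24774931, so its printed stretch lies inside the annotated gene and not in front of it. Positions in GMNN are counted from the RefSeq start of the window shown, which is downstream of that GENCODE start.
MCM10: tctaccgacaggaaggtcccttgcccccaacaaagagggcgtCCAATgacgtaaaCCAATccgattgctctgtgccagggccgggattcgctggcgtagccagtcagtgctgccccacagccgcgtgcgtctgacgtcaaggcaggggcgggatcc
PCNA: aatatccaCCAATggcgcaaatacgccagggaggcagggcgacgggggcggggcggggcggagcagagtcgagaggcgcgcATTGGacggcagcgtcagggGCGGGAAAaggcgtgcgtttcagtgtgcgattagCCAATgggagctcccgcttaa
MCM6: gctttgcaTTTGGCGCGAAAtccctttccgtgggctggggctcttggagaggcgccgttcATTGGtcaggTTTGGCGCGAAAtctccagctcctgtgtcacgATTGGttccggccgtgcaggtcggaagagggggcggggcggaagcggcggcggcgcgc
RRM1: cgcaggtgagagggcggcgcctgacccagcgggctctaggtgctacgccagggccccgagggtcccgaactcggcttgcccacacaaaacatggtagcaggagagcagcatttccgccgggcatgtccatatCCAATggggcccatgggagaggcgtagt
POLA1: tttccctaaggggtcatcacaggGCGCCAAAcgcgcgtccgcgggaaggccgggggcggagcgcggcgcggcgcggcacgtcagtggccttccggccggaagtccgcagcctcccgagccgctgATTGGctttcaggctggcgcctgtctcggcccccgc
GMNN: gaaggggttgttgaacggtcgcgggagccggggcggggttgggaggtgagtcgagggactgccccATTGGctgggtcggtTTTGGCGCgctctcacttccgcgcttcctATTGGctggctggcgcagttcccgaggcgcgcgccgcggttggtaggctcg

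In MCM6 the E2F letters TTTGGCGC and, on the other strand, TTTCGCGC overlap each other, and this pair occurs at 152 to 141 and again at 90 to 79 bases before the start. PCNA carries TTTCCCGC on the opposite strand at 59 to 52 bases and 3 CCAAT boxes, and GMNN carries TTTGGCGC at 80 to 73 bases between CCAAT boxes at 95 to 91 and 51 to 47 bases. POLA1 has TTTGGCGC on the opposite strand at 137 to 130 bases. MCM10 and RRM1 have CCAAT boxes and none of the E2F letters in the stretch shown.

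Over whole windows, 19 of 35 members (54.3%) held E2F letters, against 3.99% of the 27305 genes of the promoter table and 8% of 25 mitosis genes with a window. Of other lists described below, 31% of 29 further replication factors, 27.3% of 22 upstream regulators and 15.4% of 26 other nucleotide synthesis genes held them. The CHR element letters TTTGAA, which mark many G2 and M phase genes, gave the opposite picture: 1 of 35 members (2.86%, RRM1) held them, against 18.2% of all genes and 72% of the mitosis genes. CCAAT boxes were found in 60% of members, 80% of mitosis genes and 39.7% of all genes, and the E-box letters CACGTG in 14.3%, 20% and 8.77%. E2F and CHR letters were searched on both strands, E2F matches may overlap, and a match is a description of letters, not a bound site. The size of the change did not follow the E2F letters: the median change from day 0 to day 18 in WT was -1.26 on the log2 scale over the 19 members with them and -1.24 over the 16 without. TYMS, with E2F letters, and RRM2, without, showed the largest falls of the 38 genes.

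From day 0 to day 18, 37 of the 38 genes fell and 1, GINS4, rose, and this held in each of the 3 lines. Changes are differences of group means of log2(FPKM + 1) from a limma fit over all 13785 tested genes, with p-values adjusted by the Benjamini-Hochberg method and called under 0.05. Over all tested genes 34% were called lower and 38.2% higher in WT, 35% and 37.9% in C14R, and 34.4% and 38.6% in the deletion line. The median change of the 38 genes was -1.25 in WT, -1.14 in C14R and -1.12 in the deletion line, where the median over all tested genes was 0.03, 0.02 and 0.03. For all 37 genes every day 18 library lay below every day 0 library of the same line, which held for 36%, 34.5% and 36.8% of all tested genes. On the FPKM scale the median member kept 39.2% of its day 0 level in WT, 43.8% in C14R and 42.9% in the deletion line. In WT, 3 genes kept under 25%, 23 kept 25% to 50%, and 11 kept more than that but stayed below day 0. In bulk RNA, fewer cells in S phase and less of these transcripts per cell cannot be told apart.

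**Figure D1:**
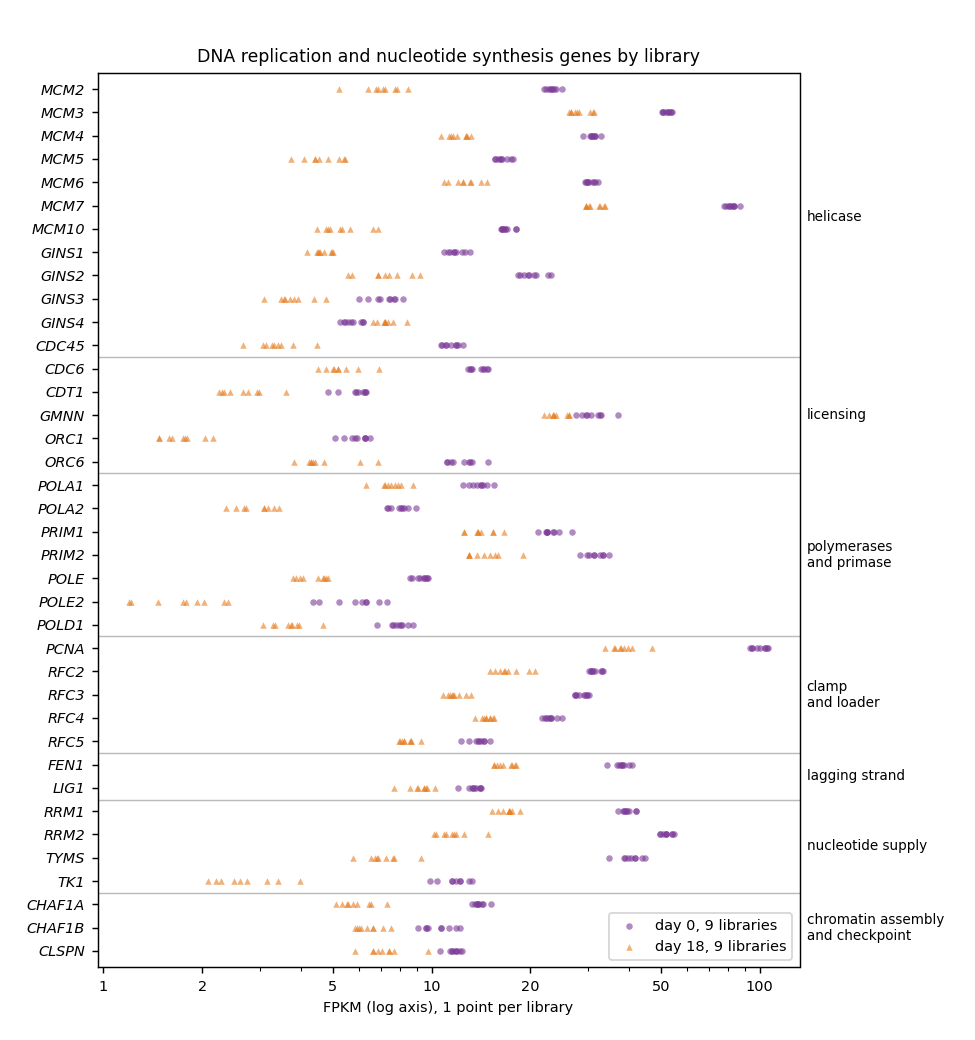
FPKM of each of the 38 genes in every library on a log axis, with day 0 libraries as purple circles and day 18 libraries as orange triangles, and with the genes ordered by role. Day 18 points lie to the left of day 0 points in every row except GINS4, with the widest gaps for TYMS, RRM2 and TK1 and the narrowest for GMNN.

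Deoxynucleotide supply showed the deepest fall of the 7 roles, with a median of -2.05 over its 4 genes in WT, and all 4 were called lower in each line. TYMS, thymidylate synthase, makes dTMP from dUMP. TYMS had 40.5, 39.6 and 34.7 for WT, 38.5, 43.6 and 41.7 for C14R and 44.6, 41.5 and 38.9 FPKM for deletion at day 0. At day 18 TYMS had 6.52, 6.82 and 5.78 for WT, 9.29, 7.24 and 7.695 for C14R and 7.64, 6.89 and 6.75 FPKM for deletion. It fell by 2.41 on the log2 scale in WT (SE 0.085, adjusted p = 7.7e-14), by 2.23 in C14R and by 2.40 in the deletion line, and day 18 means were 16.6%, 19.6% and 17% of day 0. TYMS overlaps ENOSF1 on the opposite strand over 3255 bp, and TYMS, RRM2, PCNA, RFC3, RFC5 and FEN1 have named pseudogene copies, so their values are uncertain as far as reads were shared. RRM2, the small subunit of ribonucleotide reductase whose level rises in S phase, fell from 51.8 ± 2.33 to 10.5 ± 0.38 FPKM in WT (SD, n = 3; log2 change -2.203, adjusted p = 3.7e-15), and kept 20.2% in WT, 24.6% in C14R and 22.4% in the deletion line. TK1, the cytosolic thymidine kinase of the salvage route, kept 20.3%, 26.5% and 23.9%. RRM1, the large subunit of ribonucleotide reductase, is the longer-lived partner of RRM2 and showed the smallest change of this role. RRM1 had 41.8, 38.4 and 39.5 for WT, 41.9, 39.00 and 38.9 for C14R and 39.9, 36.9 and 38.5 FPKM for deletion at day 0. Its day 18 values were 17.6, 15.3 and 15.9 for WT, 18.6, 17.2 and 16.6 for C14R and 17.2, 17.2 and 17.3 FPKM for deletion. RRM1 fell by 1.25 on the log2 scale in WT (SE 0.055, adjusted p = 1.7e-12), by 1.15 in C14R and by 1.11 in the deletion line. The day 0 levels of RRM2 and RRM1 were 51.8 and 39.9 FPKM in WT, and at day 18 their order was turned, with 10.5 for RRM2 and 16.3 for RRM1.

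Among the 12 helicase genes 11 fell, with a median of -1.41 in WT over all 12. MCM5, a subunit of the hexameric ring, fell most in WT and C14R, and MCM2 fell most in the deletion line (-1.58). MCM5 had 16.1, 16.3 and 16.3 for WT, 15.6, 17.7 and 17.5 for C14R and 15.6, 15.96 and 16.99 FPKM for deletion at day 0. Its day 18 level was 4.4, 4.09 and 3.74 for WT, 5.41, 4.84 and 4.401 for C14R and 5.47, 5.21 and 4.55 FPKM for deletion. MCM5 fell by 1.77 on the log2 scale in WT (SE 0.074, adjusted p = 7.5e-13), by 1.61 in C14R and by 1.502 in the deletion line. The ring's subunits are needed in equal numbers as proteins in the complex, but protein was not measured here. Their RNA changes were unequal: MCM2 fell by 1.72, MCM7 by 1.44, MCM6 by 1.38, MCM4 by 1.35 and MCM3 by 0.91 in WT. MCM3 kept 52.2% of its day 0 level and MCM5 25.1%, and the 95% intervals of their log2 changes, -1.02 to -0.81 and -1.92 to -1.61, did not overlap. At day 0 MCM7 was the most abundant of the ring with 81.7 FPKM in WT and MCM5 the least with 16.3. CDC45, which holds the ring in its active form, kept 27.3%, 31.3% and 30.2% in WT, C14R and the deletion line. MCM10, which helps to start the helicase, kept 27.3%, 36.6% and 32.1%.

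The GINS complex has 4 subunits, and their RNA levels parted. GINS1 fell by 1.26, GINS2 by 1.47 and GINS3 by 0.83 in WT, and these 3 fell in the other lines too. GINS4, which encodes the SLD5 subunit, had 6.18, 5.69 and 6.18 for WT, 6.08, 5.41 and 5.44 for C14R and 5.58, 5.26 and 5.77 FPKM for deletion at day 0. GINS4 at day 18 had 7.21, 6.62 and 7.63 for WT, 7.22, 7.16 and 6.82 for C14R and 8.44, 7.36 and 7.22 FPKM for deletion. All day 18 libraries were above all day 0 libraries in each line, and the log2 rise was 0.21 in WT (SE 0.069, adjusted p = 0.0098), 0.28 in C14R (adjusted p = 0.0014) and 0.41 in the deletion line (adjusted p = 4.4e-05). Without replicate 3 of WT at day 18 the rise in WT was 0.17 and was no longer called (adjusted p = 0.053). With small RNA genes left out and the libraries rescaled, it was 0.40 in WT, 0.44 in C14R and 0.60 in the deletion line. Antisense genes overlap GINS4, AC009630.1 over 10892 bp and AC009630.2 over 4664 bp in GENCODE release 29, and whether counting used the strand is not given in the sources used here, so their reads may be included.

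All 5 licensing genes fell, with a median of -1.28 in WT. ORC6, the smallest and loosest subunit of the origin recognition complex, had the lowest log2 change of them in WT, -1.30, close to -1.28 for both CDC6 and ORC1. In C14R the lowest was ORC1 (-1.48) and in the deletion line CDC6 (-1.36). ORC6 had 14.9, 11.1 and 13.3 for WT, 11.6, 12.6 and 12.98 for C14R and 11.4, 11.1 and 13.1 FPKM for deletion at day 0. Its libraries at day 18 read 6.04, 4.43 and 3.801 for WT, 6.87, 4.29 and 4.25 for C14R and 4.29, 4.72 and 4.35 FPKM for deletion. ORC6 fell by 1.30 on the log2 scale in WT (SE 0.148, adjusted p = 4.4e-07), by 1.15 in C14R and by 1.24 in the deletion line, with replicate 1 highest in both WT and C14R at day 18. CDC6 and CDT1, the loading factors, kept 36.8% and 40.1% in WT, and ORC1, the subunit of the complex that cycles with the cell, kept 31.4%. GMNN, geminin, the inhibitor of CDT1, moved least among the 37 falling genes. GMNN had 36.9, 30.5 and 32.9 for WT, 29.7, 28.8 and 32.2 for C14R and 32.6, 27.6 and 29.5 FPKM for deletion at day 0. The GMNN level at day 18 was 26.2, 23.5 and 23.4 for WT, 26.2, 21.97 and 22.8 for C14R and 23.7, 24.00 and 25.8 FPKM for deletion. GMNN fell by 0.44 on the log2 scale in WT (SE 0.079, adjusted p = 8.2e-05), by 0.34 in C14R and by 0.28 in the deletion line, and kept 72.8%, 78.3% and 81.9%. Where small RNA genes were left out and libraries rescaled, its changes were -0.24 in WT, -0.16 in C14R (adjusted p = 0.059) and -0.06 in the deletion line (adjusted p = 0.47), so its fall was not called in the variant lines on that scale. GMNN ranked 8th of the 38 genes by WT level at day 0 and 4th at day 18.

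All 7 polymerase and primase genes fell, with a median of -0.96 in WT. POLE2, an accessory subunit of polymerase epsilon, the leading-strand enzyme, fell most and was the least abundant of the 38 genes in WT at both days. POLE2 had 6.13, 4.53 and 6.32 for WT, 5.24, 6.31 and 5.85 for C14R and 6.899, 4.37 and 7.34 FPKM for deletion at day 0. POLE2 at day 18 had 1.93, 1.201 and 1.78 for WT, 1.47, 1.21 and 2.02 for C14R and 2.33, 2.404 and 1.75 FPKM for deletion. It fell by 1.34 on the log2 scale in WT (SE 0.167, adjusted p = 1.4e-06), by 1.41 in C14R and by 1.17 in the deletion line, with a coefficient of variation between libraries of 17.4% in WT and 25.9% in deletion libraries at day 0. PRIM1, the catalytic primase subunit that writes the RNA primer, fell least. PRIM1 had 22.3, 22.5 and 23.5 for WT, 26.7, 23.7 and 22.5 for C14R and 22.5, 21.1 and 24.5 FPKM for deletion at day 0. PRIM1 at day 18 had 13.9, 13.7 and 12.6 for WT, 16.6, 15.3 and 15.4 for C14R and 14.1, 12.6 and 13.8 FPKM for deletion. PRIM1 fell by 0.72 on the log2 scale in WT (SE 0.067, adjusted p = 3e-08), by 0.59 in C14R and by 0.71 in the deletion line. PRIM1 shares 9940 bp of its locus with a protein-coding gene annotated on the same strand, AC117378.1, and FEN1, RRM2, POLA2 and POLD1 also share over 1000 bp with another protein-coding gene on their own strand, so the split of reads between them depends on the counting. Within polymerase alpha, the catalytic subunit POLA1 kept 51.4% in WT and its partner POLA2 34.4%. POLE, the catalytic subunit of polymerase epsilon, kept 40.8%, and POLD1, the catalytic subunit of polymerase delta, 45.2%. PRIM2, the large primase subunit, was the only one of the 38 that kept more in WT (53.6%) than in both variant lines (43.7% and 43.2%), with WT day 18 values of 15.9, 18.96 and 13.03 FPKM that overlap the variant libraries, and no interaction was called (adjusted p = 0.87 and 0.7).

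The clamp and its loader fell, with a median of -1.01 over 5 genes in WT. PCNA, the ring that tethers polymerases to DNA, was the most abundant of the 38 genes at both days. PCNA had 106, 104 and 106 for WT, 104, 94.97 and 100.04 for C14R and 93.5, 97.8 and 94.8 FPKM for deletion at day 0. PCNA at day 18 had 37.7, 33.8 and 36.1 for WT, 46.9, 35.9 and 40.7 for C14R and 37.4, 39.5 and 38.5 FPKM for deletion. PCNA fell by 1.52 on the log2 scale in WT (SE 0.067, adjusted p = 1.5e-12), by 1.26 in C14R and by 1.29 in the deletion line. The loader subunits RFC2 and RFC3 fell by 1.01 and 1.23 in WT, and RFC4 and RFC5 by 0.67 each. RFC5 had 14.4, 12.3 and 15.02 for WT, 14.4, 13.9 and 13.9 for C14R and 14.1, 12.98 and 13.7 FPKM for deletion at day 0. RFC5 at day 18 had 8.25, 8.59 and 8.15 for WT, 9.26, 8.25 and 7.96 for C14R and 8.63, 8.64 and 8.03 FPKM for deletion. RFC5 fell by 0.67 on the log2 scale in WT (SE 0.067, adjusted p = 8.2e-08), by 0.67 in C14R and by 0.63 in the deletion line. RFC5 thus kept 59.9% of its day 0 level in WT while PCNA kept 34.2%.

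The lagging-strand pair fell unequally. FEN1, the nuclease that removes primer flaps, had 40.7, 38.6 and 38.1 for WT, 36.7, 39.97 and 37.3 for C14R and 38.2, 34.3 and 37.9 FPKM for deletion at day 0. FEN1 at day 18 had 15.9, 15.5 and 16.2 for WT, 18.03, 15.5 and 18.02 for C14R and 17.6, 17.4 and 16.5 FPKM for deletion. FEN1 fell by 1.25 on the log2 scale in WT (SE 0.058, adjusted p = 2.9e-12), by 1.10 in C14R and by 1.06 in the deletion line. LIG1, the ligase that seals the fragments, had 12.96, 14.1 and 13.4 for WT, 13.6, 13.3 and 12.1 for C14R and 14.001, 14.03 and 13.4 FPKM for deletion at day 0. LIG1 at day 18 had 8.596, 9.45 and 7.71 for WT, 9.45, 9.65 and 9.06 for C14R and 10.2, 9.601 and 9.08 FPKM for deletion. LIG1 fell by 0.60 on the log2 scale in WT (SE 0.066, adjusted p = 2.8e-07), by 0.43 in C14R and by 0.48 in the deletion line. FEN1 kept 40.5% and LIG1 63.6% in WT, and both were separated between days in each line. LIG1 also serves DNA repair outside S phase, as background.

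CHAF1A and CHAF1B are subunits of CAF-1, which puts histones onto new DNA, and CLSPN (claspin) links stalled forks to the checkpoint kinase. All 3 fell, with a median of -0.80 in WT. CHAF1A had 14.3, 14.4 and 13.8 for WT, 13.8, 15.2 and 13.9 for C14R and 13.5, 13.3 and 13.7 FPKM for deletion at day 0. CHAF1A at day 18 had 5.52, 5.13 and 5.55 for WT, 7.297, 6.43 and 6.54 for C14R and 5.92, 5.35 and 5.78 FPKM for deletion. CHAF1A fell by 1.24 on the log2 scale in WT (SE 0.057, adjusted p = 2.3e-12), by 0.98 in C14R and by 1.12 in the deletion line. CHAF1B had 10.7, 11.8 and 9.75 for WT, 9.61, 11.3 and 12.2 for C14R and 9.09, 10.7 and 9.605 FPKM for deletion at day 0. CHAF1B at day 18 had 6.37, 6.64 and 6.03 for WT, 7.52, 6.11 and 6.62 for C14R and 5.92, 5.84 and 7.14 FPKM for deletion. CHAF1B fell by 0.68 on the log2 scale in WT (SE 0.096, adjusted p = 6.5e-06), by 0.63 in C14R and by 0.56 in the deletion line. As in the MCM ring and the GINS complex, the RNAs of partners of one complex changed by different amounts. In WT 38.2% of CHAF1A RNA and 59% of CHAF1B RNA were left. CLSPN kept 53.9% in WT and 67.6% and 64.5% in the variant lines.

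**Figure D2:**
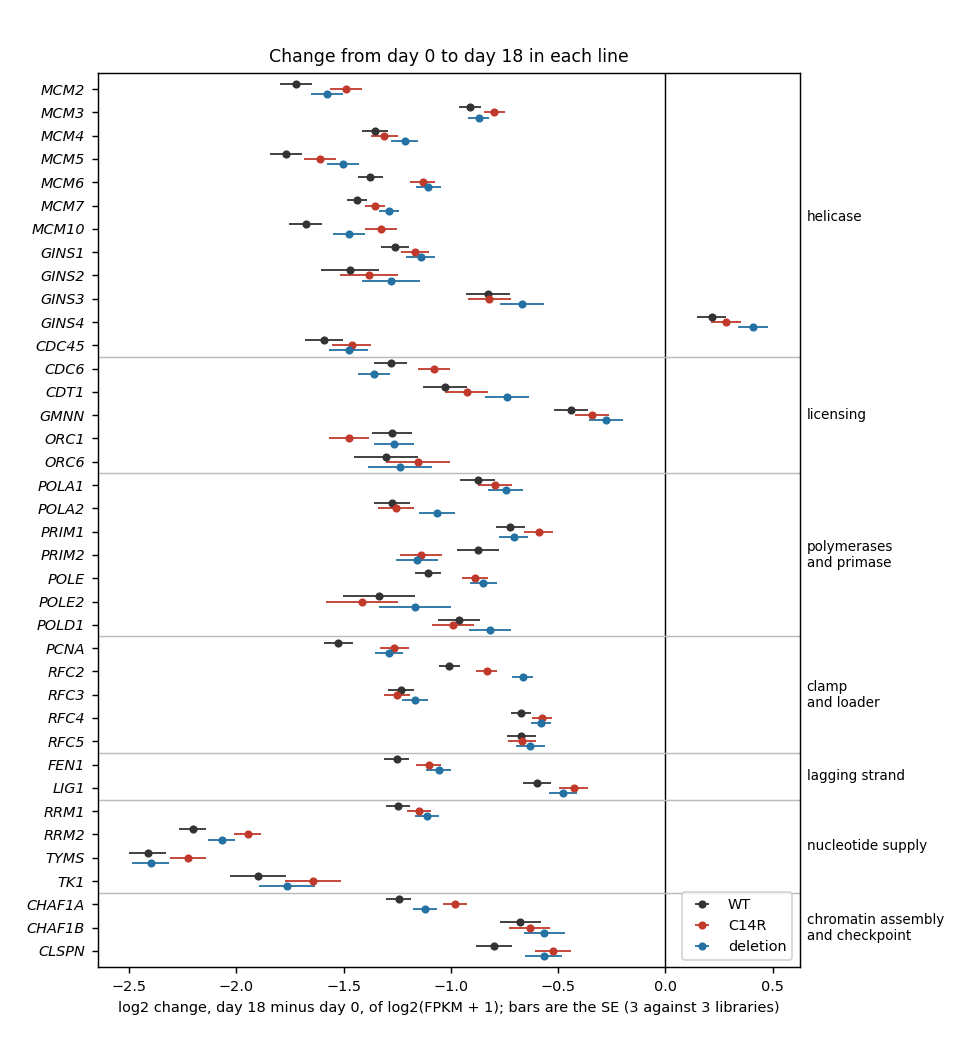
Change from day 0 to day 18 of log2(FPKM + 1) for each gene in the WT (black), C14R (red) and deletion (blue) lines, with bars for the SE of the limma fit (3 against 3 libraries). TYMS, RRM2 and TK1 lie farthest to the left, GMNN nearest to 0 among the falling genes, and GINS4 alone to the right of 0.

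The first principal component over the 38 genes held 97.4% of their variance between libraries, and over all tested genes it held 86.9%. The mean log2(FPKM + 1) of the 38 genes was 4.20 to 4.31 in the 9 day 0 libraries and 3.04 to 3.28 in the 9 day 18 libraries. Libraries of a group differed little for most members: the median coefficient of variation was 4.41% in WT at day 0 and 6.99% at day 18, and the highest at day 18 were 24.3% in WT and 29.2% in C14R, both for ORC6. Leaving out each library in turn, and each change of filter, pseudocount or scaling, kept 1 of the tested members positive, GINS4, in each line. Rescaling without small RNA genes moved the median of all tested genes from near 0 to 0.21 in WT, 0.18 in C14R and 0.22 in the deletion line, and the share of higher among called genes from 52.9%, 52% and 52.8% to 68.5%, 66.2% and 69.3%. On that scale 37, 36 and 36 of the 38 genes were still called lower.

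Subunits of the same machines that are not among the 38 genes were compared next. They were chosen after values had been seen. Of the 6 subunits of the origin recognition complex, ORC1 and ORC6 fell by 1.28 and 1.30 in WT and ORC2 by 0.52, while ORC3 changed by 0.11 (95% interval 0.003 to 0.22, adjusted p = 0.061) and ORC4 rose by 0.13 (adjusted p = 0.017). ORC3 changed by much the same in the other lines, 0.13 in C14R (adjusted p = 0.033) and 0.12 in the deletion line (adjusted p = 0.043), and was called there. ORC4 was not called in them (0.06, adjusted p = 0.28, and 0.09, adjusted p = 0.086). Calls of such small rises changed with the scaling, as given below for the remaining replication factors. ORC5 fell by 0.19 in WT (adjusted p = 0.017), but its change was 0.01 after rescaling without small RNA genes. RFC1, the large subunit that makes RFC2 to RFC5 into the PCNA loader, stood in WT at 21.6, 22.03 and 24.1 FPKM on day 0 and at 21.2, 22.2 and 21.9 on day 18. Its change of -0.05 in WT had a 95% interval of -0.17 to 0.07 and was not called, and it turned to 0.15 on the scale without small RNA genes. In polymerase delta, POLD1 and POLD2 fell by 0.96 and 0.61, and POLD3 (-0.19, adjusted p = 0.078) and POLD4 (0.23, adjusted p = 0.08) were not called. All 4 subunits of polymerase epsilon fell, POLE3 by 0.68 and POLE4 by 1.21, and all 3 subunits of the single-strand binding protein RPA fell, by 0.66 for RPA1, 0.35 for RPA2 and 0.83 for RPA3.

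**Figure D3:**
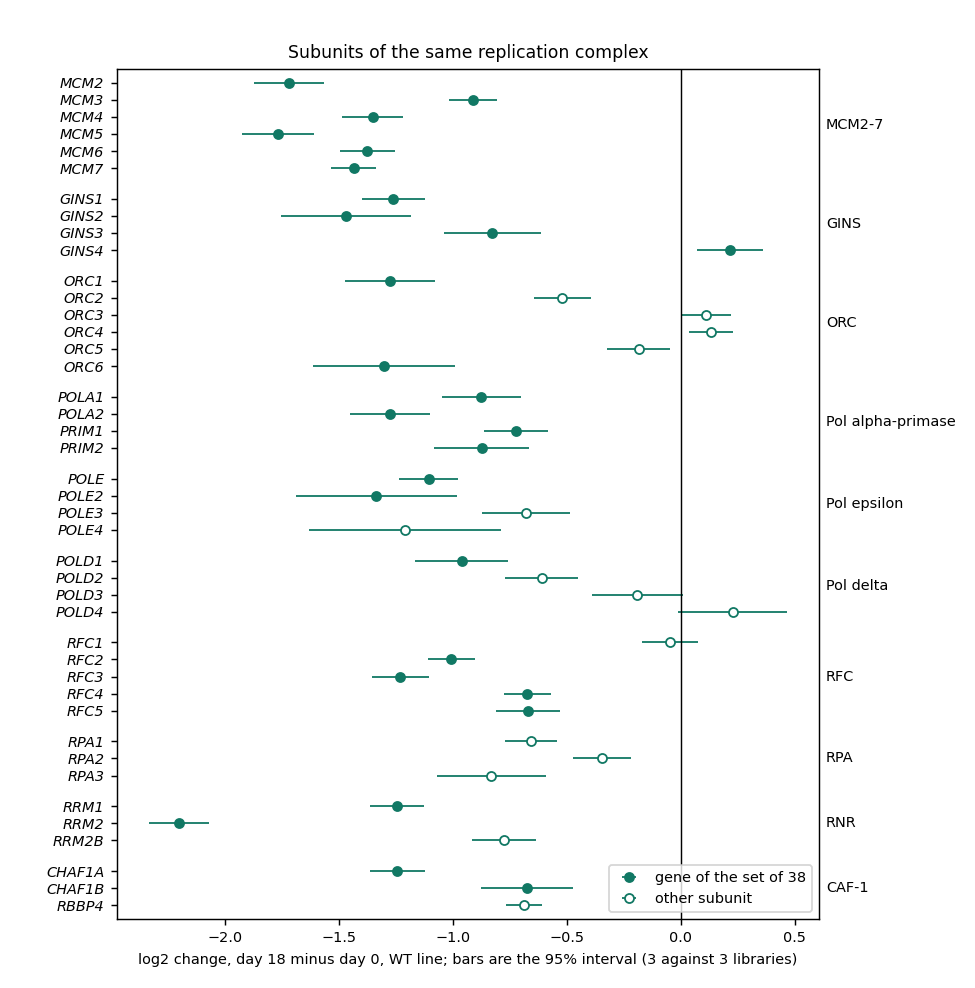
Change from day 0 to day 18 in the WT line for subunits grouped by complex, with filled circles for the 38 genes, open circles for other subunits and bars for the 95% interval (3 against 3 libraries). GINS4 lies to the right of 0 apart from GINS1, GINS2 and GINS3, and RFC1, ORC3 and ORC4 lie near 0 beside partners that fell.

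Paralogs of the members fell by less, rose or were not called. RRM2B, the ribonucleotide reductase subunit used outside S phase, had WT values of 26.99, 25.4 and 25.1 FPKM at first and 13.8, 15.8 and 14.5 on day 18, a fall of 0.78 against 2.203 for RRM2. At day 0 RRM2 exceeded RRM2B, with 51.8 against 25.8 FPKM in WT, and at day 18 RRM2B was the higher, with 14.7 against 10.5. TK2, the mitochondrial thymidine kinase, rose from 3.49 ± 0.188 to 4.88 ± 0.416 FPKM in WT (SD, n = 3; log2 change 0.39, adjusted p = 0.00056), where TK1 fell to 2.3 FPKM. MCM8 fell by 0.71, and MCM9, which acts with MCM8 in repair, changed by 0.15 and was not called in WT (adjusted p = 0.15), while its 0.21 in the deletion line was (adjusted p = 0.044).

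The remaining replication factors, a list of 38 further genes, were called lower in 30 cases and higher in 2 in WT, with a median of -0.68. RNASEH2A, a subunit of the enzyme that removes ribonucleotides from DNA, fell by 1.53, UHRF1, which directs maintenance methylation, by 1.51, and ASF1B, a histone chaperone, by 1.44. The 2 genes that rose in WT were ORC4 and DONSON, a fork protection factor, whose WT libraries gave 10.8, 8.79 and 9.70 FPKM on day 0 and 17.4, 19.02 and 19.8 on day 18 (log2 change 0.88, adjusted p = 5.2e-09). With small RNA genes left out, 27 were lower and 7 higher in WT. ORC3, ORC4 and MCM9 belong to this list too. In the main fit 2 of its genes were called higher in WT, 2 in C14R and 3 in the deletion line. Median-of-ratios scaling left 1 in each line, and quantile normalization left 2, 1 and 1. Of 34 other genes of nucleotide synthesis, 29 were lower and 4 higher in WT, with a median of -0.58. NME1, a nucleoside diphosphate kinase, fell by 1.72, and IMPDH1, of guanine nucleotide synthesis, by 1.42. The 4 that rose were DCK, the deoxycytidine kinase of the salvage route (0.22), SAMHD1, which breaks down deoxynucleotides (0.23 in WT, and -0.004 and -0.04, not called, in C14R and deletion), TK2, and ADSSL1, an adenylosuccinate synthase (0.85). On the scale without small RNA genes this list had 22 lower and 4 higher.

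Mitosis genes fell with the replication genes: 30 of 30 were called lower in each line, with a median of -1.45 in WT. CDC20, the activator of the anaphase-promoting complex, fell by 2.37, CCNB2, a mitotic cyclin, by 2.12, and UBE2C, a ubiquitin-conjugating enzyme of mitotic exit, by 1.96. Among 30 regulators upstream of replication 24 fell and 4 rose in WT, with a median of -0.78. MYC, a growth-promoting transcription factor, went from 19.1, 21.0 and 22.2 FPKM to 0.454, 0.583 and 0.318 in WT, a log2 fall of 3.91. CDKN1A (p21), an inhibitor of cyclin-dependent kinases and a p53 target, also fell, from 127 ± 5.62 to 17.9 ± 1.13 FPKM (log2 change -2.75). The 4 that rose were the kinase inhibitors CDKN1B (p27; 0.57), CDKN1C (p57; 0.59) and CDKN2D (p19; 1.91) and the retinoblastoma family gene RBL2 (p130; 0.18). CDKN2D in the WT libraries went from 2.86, 4.06 and 3.59 FPKM to 18.1, 14.1 and 15.6.

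Markers of other cell types moved with the day as well. The summed FPKM of 10 fibroblast and mesenchymal genes was 481 to 510.4 at day 0 and 193.7 to 218.3 at day 18. Of the 8 that were tested, 7 fell in WT and 1, PDGFRA, rose, while POSTN was listed at 0 in each WT library at day 0, as was CD3E of the blood list. The 8 genes of Schwann cells and glia summed to 3.99 to 5.56 FPKM at day 0 and 9.42 to 11.5 at day 18, and the 6 of blood and endothelium to 5.56 to 7.13 and 1.15 to 2.33. Whether these shifts have a part in the fall of the replication genes was not tested.

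At day 0 the variant lines were close to WT for these genes. None of the 38 was called between C14R and WT at day 0 by limma (0% of all tested genes were called), and 0 had an unadjusted p under 0.05 (2.81% of all genes), with log2 differences between -0.14 and 0.11. Deletion against WT at day 0 also gave 0 called (0.029% of all genes), and 1, GINS3, lower at an unadjusted p under 0.05 (6.22% of all genes in either direction). GINS3 had 8.18, 7.71 and 7.40 FPKM in WT and 6.39, 6.03 and 6.99 in deletion libraries at day 0 (log2 difference -0.23, SE 0.101, adjusted p = 0.77). The median over the 38 genes was 0.01 for C14R and -0.04 for deletion, with 24 and 10 of 38 above 0. In the deletion line at day 0, 6 of the 38 had all 3 libraries below all 3 WT libraries and 1 had them above. Over all 13785 tested genes 1279 lay below and 1196 above in this way. Of the 30 mitosis genes 13 lay below and 1 above, with 4 lower and 0 higher at an unadjusted p under 0.05 by limma and 0 called.

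At day 18 most of the 38 genes were somewhat higher in both variant lines than in WT, and few of these differences passed the test. Against WT, 0 genes were called in C14R (0.0363% of all tested genes) and 1 in the deletion line (0.0725%). Differences were above 0 for 30 of 38 genes in C14R, with a median of 0.11, and for 32 of 38 in the deletion line, with a median of 0.09, where the median of all tested genes was -0.002 and 0.005. At an unadjusted p under 0.05, 17 of 38 were higher in C14R and 0 lower (5.36% of all genes higher), and 8 were higher in the deletion line and 0 lower (5.77%). In C14R 15 genes had all 3 libraries above all 3 WT libraries (5.44% of all genes), and in the deletion line 10 did (10.4%). Both comparisons use the same 3 WT libraries, so they are not independent of each other. The genes were measured in the same libraries, so their counts are not independent observations and rest on 3 against 3 libraries. By group means WT was lowest of the 3 lines for 27 of the 38 genes, C14R highest for 23 and deletion highest for 12.

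**Figure D4:**
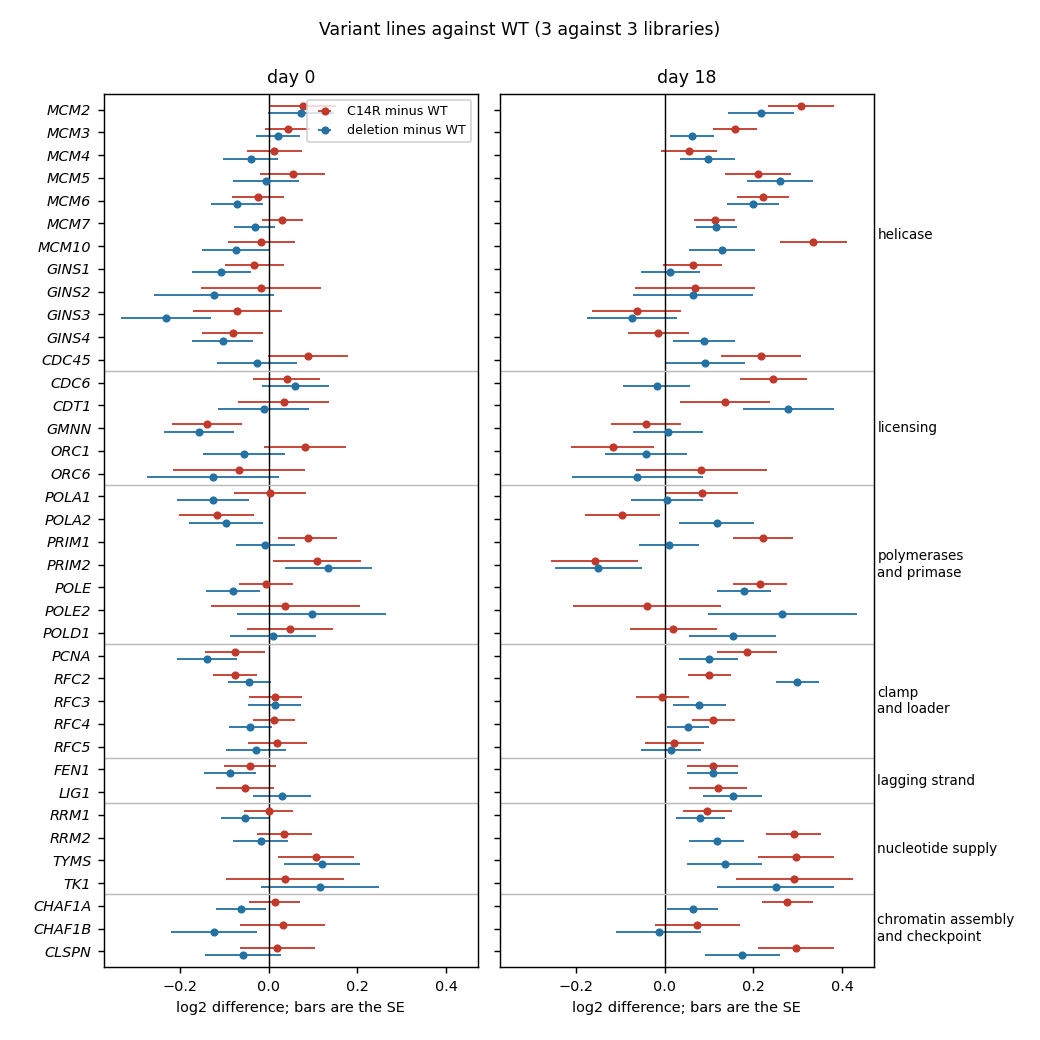
Log2 difference of C14R (red) and deletion (blue) from WT at day 0 (left) and day 18 (right) for each gene, with bars for the SE (3 against 3 libraries). Points lie around 0 at day 0 and mostly to the right of it at day 18, where RFC2 in the deletion line is the 1 called difference.

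RFC2, a small subunit of the clamp loader, was that gene. RFC2 had 33.1, 30.9 and 33.3 for WT, 31.4, 30.6 and 30.2 for C14R and 30.5, 32.7 and 31.1 FPKM for deletion at day 0. RFC2 at day 18 had 15.1, 15.6 and 16.2 for WT, 16.7, 16.7 and 17.1 for C14R and 20.6, 19.8 and 18.02 FPKM for deletion. All 3 deletion libraries were above all 3 WT and all 3 C14R libraries at day 18, and the log2 difference from WT was 0.30 (SE 0.049, adjusted p = 0.042). The call was not a firm one. It was lost in 17 of 28 alternative analyses, among them 5 of the 6 that left out a library of the comparison (adjusted p 0.058 to 0.21), the exception being replicate 3 of the deletion line, the fit restricted to the libraries compared (adjusted p = 0.28) and the scale without small RNA genes (adjusted p = 0.056). Over all alternatives the adjusted p ran from 0.0097 to 0.28, and the difference from 0.26 to 0.35. RFC2 fell from day 0 to day 18 by 1.01 in WT, 0.83 in C14R and 0.67 in the deletion line, and the difference between the deletion line's fall and that of WT was 0.34 (SE 0.069, adjusted p = 0.29). The other loader subunits showed smaller differences between the deletion line and WT at day 18, 0.08 for RFC3, 0.05 for RFC4 and 0.01 for RFC5, and none was called.

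In C14R at day 18 the smallest p-values belonged to CHAF1A, RRM2, MCM10, MCM2 and MCM6. CHAF1A had 7.30, 6.43 and 6.54 FPKM in C14R against 5.52, 5.13 and 5.55 in WT (log2 difference 0.28, SE 0.057, adjusted p = 0.1). RRM2 had 14.8, 11.8 and 12.6 FPKM against 10.3, 10.9 and 10.2 (0.29, SE 0.062, adjusted p = 0.1). MCM10 had 6.88, 5.27 and 6.61 FPKM against 4.92, 4.77 and 4.49 (0.34, SE 0.075, adjusted p = 0.12). In all 3 genes the C14R libraries did not overlap WT, and replicate 1 of C14R was the highest. MCM2 (7.11, 7.83 and 8.50 against 6.76, 6.42 and 5.24 FPKM) and MCM6 (14.7, 12.5 and 13.2 against 10.9, 11.2 and 12.03) were separated too. By role the median difference was 0.29 for deoxynucleotide supply and 0.28 for chromatin assembly and checkpoint, 0.14 for the helicase, 0.08 for licensing and 0.02 for the polymerases and primase.

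How many of these passed depended on single libraries and on how libraries were weighted. With limma's array weights 5 genes were called higher in C14R at day 18 (CHAF1A, MCM10, MCM2, RRM2 and TK1). Without replicate 2 of C14R at day 18 there were 6 (CHAF1A, CLSPN, MCM10, MCM6, PCNA and RRM2), and 16 were higher at an unadjusted p under 0.05 (7.65% of all genes). The shares of all tested genes called under these settings are not given here, so the counts of 5 and 6 cannot be set against them. Without replicate 1 of C14R at day 18, the library with the lowest FPKM sum, 0 were called, 26 of 38 differences were above 0 with a median of 0.10, and 13 were higher at an unadjusted p under 0.05 (6.13% of all genes). The SNORD3A share of the FPKM sum also differed between these groups, 7.21% to 15.1% in WT, 1.01% to 5.89% in C14R and 8.12% to 8.27% in deletion libraries at day 18, and its part in the differences was not tested. Leaving small RNA genes out and rescaling gave 30 of 38 differences above 0 and a median of 0.11, as before. The mean log2(FPKM + 1) of the 38 genes was 3.12, 3.11 and 3.04 in the WT libraries at day 18, 3.28, 3.14 and 3.20 in C14R and 3.24, 3.15 and 3.16 in the deletion line.

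**Figure D5:**
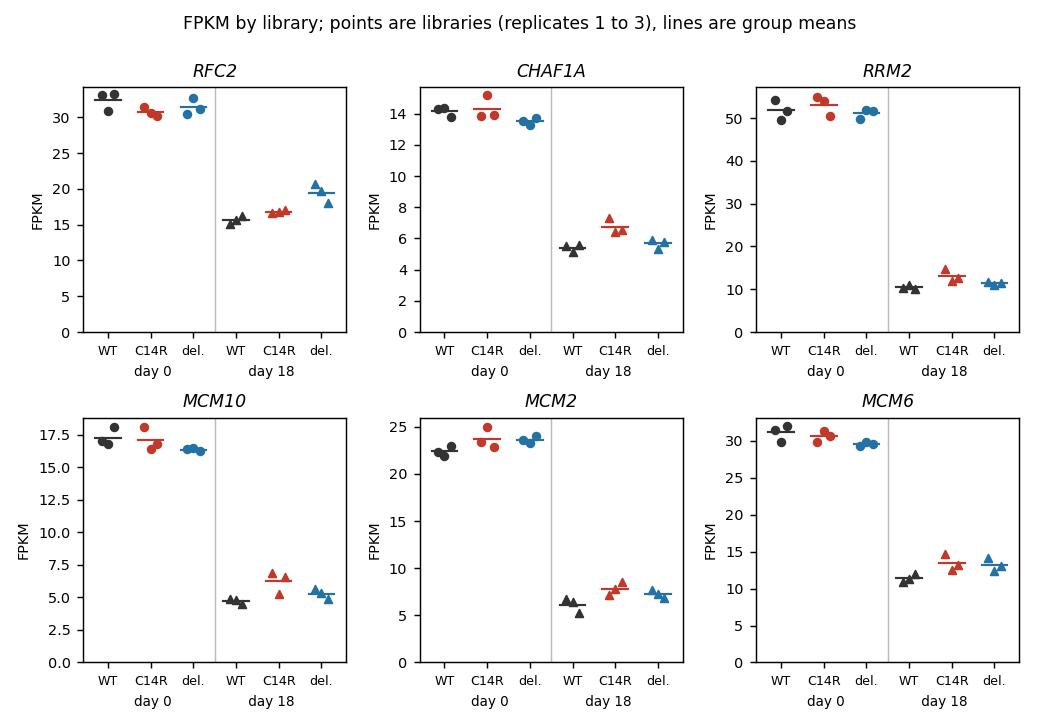
FPKM by library for RFC2 and for the 5 genes with the smallest p-values between C14R and WT at day 18, with points for libraries (circles at day 0, triangles at day 18) and lines for group means, on axes that start at 0. At day 18 the RFC2 points of the deletion line lie above those of both other lines, and the C14R points of the other 5 genes lie above WT.

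The mitosis genes gave the same kind of difference at day 18: 28 of 30 were above 0 in C14R against WT, with a median of 0.16 and 12 at an unadjusted p under 0.05, and 22 of 30 in the deletion line, with a median of 0.07. None of the 30 was called by limma in either, and 8 were higher and 1 lower at an unadjusted p under 0.05 in the deletion line. Among the upstream regulators 1 was called, MYBL2, the B-MYB transcription factor of the cell cycle, which had 11.9, 12.3 and 12.6 FPKM in C14R against 9.52, 10.0 and 9.27 in WT (log2 difference 0.32, SE 0.047, adjusted p = 0.012) and is named here because of that value. Other replication factors had a median of 0.05 in C14R against WT, with 2 higher and 1 lower at an unadjusted p under 0.05, and 0.002 in the deletion line, with 1 higher and 4 lower. Other nucleotide genes had a median of 0.03 in both, with 2 higher and 2 lower in C14R and 2 higher and 3 lower in the deletion line, and limma called 0 genes of either list. Of the fibroblast and mesenchymal markers, 1 of 8 was above 0 in C14R against WT at day 18 and 1 of 8 in the deletion line, with medians of -0.17 and -0.15, 0 called, and 4 lower at an unadjusted p under 0.05 in each. Their sums at day 18 were 211.6 to 218.3 FPKM in WT, 193.7 to 208.9 in C14R and 196.6 to 206.8 in the deletion line, and their part in the differences was not tested.

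Whether the change over time differed between lines was tested by interaction terms, and 0 of the 38 genes passed in C14R (0% of all tested genes) or in the deletion line (0.0145%). The change was less negative than in WT for 33 of 38 genes in C14R and 36 of 38 in the deletion line (GINS4's rise was larger in both), with median differences of 0.11 and 0.14. At an unadjusted p under 0.05, 9 genes were higher by this measure in C14R (2.99% of all genes) and 7 in the deletion line (3.5%), and 0 were lower in either. These terms use the same WT libraries as the comparisons at each day. The exceptions in sign in the deletion line were PRIM2 (-0.28) and CDC6 (-0.08).

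C14R and deletion were also compared with each other, and 0 of the 38 genes were called at day 0 (0.058% of all tested genes) or at day 18 (0.029%). At an unadjusted p under 0.05 there were 0 at day 0 (9.84% of all genes) and 7 at day 18 (11.2%), 5 higher and 2 lower in C14R. CDC6 had 6.91, 5.48 and 5.96 FPKM in C14R and 5.04, 5.19 and 4.52 in deletion libraries at day 18, and RFC2 differed in the opposite direction.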

How the data were processed

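Gene expression was measured by RNA-seq of ribosomal RNA-depleted total RNA (TRIzol, DNase I, Ribo-Zero and NEBNext Ultra kits, per the labels' protocols). The authors deposited FPKM per gene symbol, 1 column per library. The submitters' processing notes name TopHat2, STAR, Cufflinks 2.2.1 and hg38. Their order, the annotation and the use of strand are not given in the sources used here. Column names were sample titles, which gave group and replicate, and 0 columns lacked a sample. FPKM hold no counts, so the absolute depth is unknown and no counting interval can be given.

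Of 26372 symbols, 13785 were tested, those whose FPKM averaged 1 or more over the 18 libraries. limma 3.58.1 (R 4.3.3) was fitted to log2(FPKM + 1), with 6 group means in one fit, a mean-variance trend and Benjamini-Hochberg adjustment within each of 11 comparisons, at a threshold of 0.05. The pseudocount of 1 understates changes of low genes. The fit was repeated with a pseudocount of 0.1, no filter, a minimum of 5 FPKM, median-of-ratios scaling, quantile normalization, small RNA genes left out with rescaling, the replicate number as a block, no trend, array weights, only the libraries compared, and each library left out in turn.

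The members and the other gene lists were chosen with earlier results of these data known. Every member could be named. Values in every library were given for the members with the largest fall and the smallest change of each role in WT and for any member called in a variant comparison. From the other lists, genes called against the list's direction and the 3 with the largest change were named, with paralogs of members. One gene that this rule names is not reported here. Gene positions were those of GENCODE 29 (GRCh38) for 38 of 38 members, and promoter windows from RefSeq on GRCh38.p14.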

Additional observations from a re-analysis of the deposited data

How the results depend on the processing

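The day 18 against day 0 counts of members called stayed at 35 to 38 in each line under 28 alternatives, where 35 is the number of members left with a minimum of 5 FPKM. Of 3183 recomputed member changes between days, 3180 kept their direction and call and 0 changed sign. The other 3 were GINS4 in WT without WT day 18 replicate 3 (0.17, adjusted p = 0.053) and GMNN in C14R (-0.16, adjusted p = 0.059) and in the deletion line (-0.06, adjusted p = 0.47) with small RNA genes left out. For C14R against WT at day 18, 5 members were called with array weights, and 0 to 6 when 1 library was left out. The shares of all tested genes called under these settings are not given here. For the deletion line against WT at day 18, 0 were called with small RNA genes left out and 0 with only the libraries compared, and 0 to 1 when 1 library was left out. Leaving out some libraries that are not in the comparison also gave 0, with the RFC2 difference unchanged at 0.30, while leaving out others kept the call. All libraries of the fit share an estimate of each gene's spread. Leaving out a library of another group can thus change an adjusted p without changing the difference. All other comparisons gave 0 members called under each alternative run.

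The replicate number as a block gave 0 members called for the deletion line against WT at day 18 (RFC2 0.30, adjusted p = 0.11) and changed no other member call. The labels do not say that a number marks a shared culture or day. Deviations from group means correlated at -0.36 to 0.13 over 18 pairs of libraries with the same number, and at -0.17 to 0.27 over 36 pairs with different numbers. These correlations showed no pairing by number. The SNORD3A share at day 0 was alike within replicate 1 (58.6% in WT, 52.9% in C14R and 51.5% in deletion). It was also alike within replicate 2 (7.69%, 7.55% and 6.87%), but not within replicate 3 (8.63%, 57.3% and 18.6%). Whether a number marks a shared preparation was not tested.

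Among the low members, POLE2, ORC1 and CDT1 lay under 3.7 FPKM in every day 18 library, with group coefficients of variation of up to 26.4% at day 18. The highest at day 18 was 29.2%, for ORC6 in C14R, with a mean of 5.135 FPKM. The part of depth in this spread was not tested. TK1 and POLA2 were low too, with means of 2.3 and 2.91 FPKM in WT at day 18. The coefficient of variation of TK1 was 19.9% in the deletion line at day 18.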
